A study of Homo sapiens with 9 samples.

Results

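In vehicle-treated PC-3 cells, 156 long non-coding RNA (lncRNA) genes had a rounded count of 0 in every library. Each had at least 5 counts in every library after decitabine alone. All libraries came from PC-3, a human cell line grown from a bone metastasis of a prostate tumour. RNA-seq was available for 3 control libraries (Ctrl, treated with the vehicle), 3 libraries of cells treated with 1 µM decitabine (Dec), and 3 libraries of cells that received 1 µM decitabine together with 200 µM S-adenosylmethionine (Dec_Sam), all after 5 days. A gene was a member when GENCODE types it as lncRNA, its rounded count was 0 in each Ctrl library, and it had at least 5 counts in each Dec library. H19, MEG3, MEG8, HYMAI, KCNQ1OT1, HOTAIR and PCAT1 were set aside, of which 1 met the count rule. The 156 members were found among 60617 genes, 16739 of them lncRNAs, and made up 1.86% of the 8396 lncRNAs at 0 in the controls. Of the 3479 protein-coding genes at 0 in the controls, 346 (9.95%) met the same count rule. The members were thus chosen by their Ctrl and Dec counts, so the difference between these groups is given as a description and was not tested.

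A lncRNA is a long transcript, often spliced and polyadenylated like a messenger RNA, that carries no long open reading frame. Many are antisense to a protein-coding gene, start next to its promoter, or host microRNAs in their introns or exons. Decitabine is a cytidine analogue that is built into replicating DNA and traps the maintenance methyltransferase DNMT1, so that cytosine methylation at CpG dinucleotides is lost as cells divide. S-adenosylmethionine (SAM) is the methyl donor of the DNA methyltransferases. Silent promoters with methylated CpG, including those of retroviral repeats and of genes otherwise confined to the germ line, are known to be opened by such drugs.

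The libraries held 21934045 to 22489534 counts each. Epithelial genes were read in all of them, with KRT18 at 6870 to 8906 counts, whereas KLK3, the gene of prostate-specific antigen, had 0. Of 8 markers of fibroblasts, leukocytes and endothelium, 7 could be tested and all 7 were higher with Dec than with Ctrl (edgeR quasi-likelihood test, adjusted p under 0.05), among them COL1A1, which rose from 50 to 76 counts per library to 1008 to 1617, while the T cell gene CD3E had at most 2 counts in any library. The part of these markers in the results below was not tested. Of 13 genes of the DNA methylation machinery, 12 were tested: 9 were lower with Dec, among them DNMT1 (log2 fold change -0.81), and DNMT3B and ZBTB38 were higher, where 32.5% of all genes were lower and 36.3% higher. Between Dec_Sam and Dec, 1 of the 12, UHRF1, a cofactor of DNMT1, was called higher (log2 fold change 0.56, edgeR adjusted p = 0.0039). No other gene of this list was called, where 7.67% of all genes were called higher and 8.02% lower. In bulk libraries such as these, more cells with a transcript and more transcript per cell cannot be told apart.

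Most members carried no established name. A total of 85 were listed by Ensembl identifier alone, 38 had a LINC number, 20 were named as the antisense RNA of a gene, 4 as microRNA host genes, and 9 had another name. The canonical transcript had 1 exon in 10 members, 2 exons in 43 and 3 or more in 103. In 154 of the 156, the control estimate was exactly 0 in each library, and the other 2 had estimates of at most 0.5 that rounded to 0. Each of 17 members had a near-identical copy elsewhere in the annotation (at least 95% identity over at least 50% of a transcript), so that reads could have been shared between copies. ENSG00000224698 and ENSG00000238122 had the same sequence in full and the same counts in every library (6, 6 and 14 with Dec), and cannot be counted as 2 separate observations. In addition, 18 members had 20% or more of their exon bases in exons of a gene on the other strand, and 5 in exons of a gene on the same strand. The strandedness of the libraries is not given in the sources used here, so reads of such pairs cannot be told apart.

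With decitabine the members were read at low levels. Summed over the 3 Dec libraries, the median member had 35 counts and the range ran from 15 to 807. Only 18 members reached 100 counts and 58 stayed under 30, and the 10 largest held 34.6% of all member counts. Per kilobase of exon, the median level was 0.369 CPM (counts scaled to the library total, with TMM factors) with Dec, from 0.0341 to 4.35. The 2279 lncRNAs with 5 or more counts in each control had a median of 0.532 CPM per kilobase in the controls and 0.641 with Dec. A control count of 0 sets no level, so folds were computed against 3 counts over the 3 controls together: the members were at least 9.93-fold higher with Dec in the median, with bounds from 4.25-fold to 229-fold. The rule of 0 counts with Ctrl and at least 5 with Dec sets the lower end, so these folds only describe the members.

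ENSG00000226919, an uncharacterised lncRNA of 5 exons on the plus strand of chromosome 1, was the member with the most counts. It had 0 counts in each Ctrl library, 255, 291 and 261 with Dec, and 106, 110 and 134 with Dec_Sam. The 3 groups did not overlap, and the level with Dec was at least 229-fold above the controls. It lies inside RGS7, which encodes a regulator of G protein signalling and is read from the other strand, and 28.35% of its exon bases are in exons of RGS7 or of the pseudogene THAP12P8. LINC01602 on chromosome 8 had 113, 137 and 145 counts with Dec and 94, 119 and 125 with Dec_Sam. Its values in the treated groups overlapped.

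LINC00440, on chromosome 13 and far from any protein-coding gene, differed from all of these in its spread. It had 34, 57 and 218 counts with Dec and 55, 60 and 182 with Dec_Sam, so that replicate 3 stood apart in both treated groups. The mean with Dec was 4.36 ± 4.25 CPM (SD, n = 3), a spread as large as the mean. ENSG00000238178 on the X chromosome had 117, 75 and 74 counts with Dec and 51, 37 and 64 with Dec_Sam, and 63.36% of its exon bases lie in exons of GRPR and MAGEB17 on the other strand. ENSG00000284837 on chromosome 17 had 56, 85 and 69 with Dec and 53, 42 and 73 with Dec_Sam. ENSG00000270866 on chromosome 8 had 56, 78 and 60 with Dec and 34, 28 and 50 with Dec_Sam, but 94.5% of its transcript is shared in full identity with LINC01109. ENSG00000233191, LINC01819 and ENSG00000257474, also among the 10 with the most counts, are described with the Dec_Sam comparison.

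**Figure D1:**
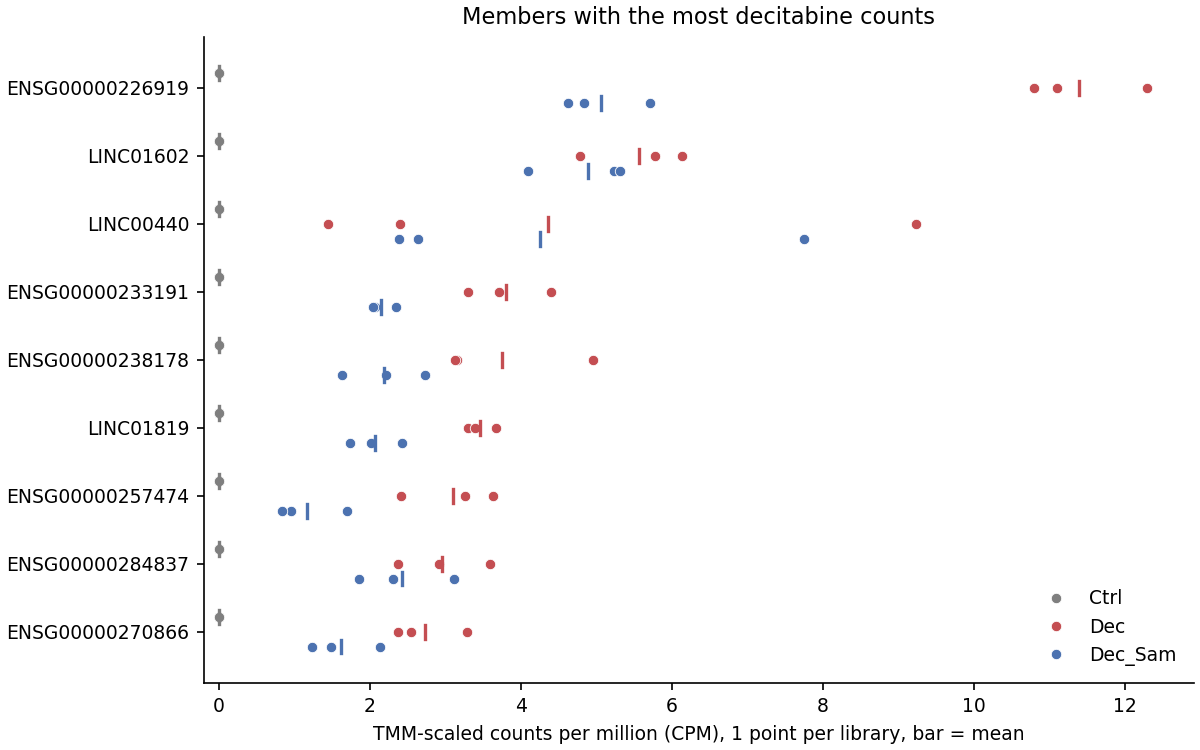
Levels of 9 of the 10 members with the most Dec counts, in TMM-scaled CPM on a linear axis, with 1 point per library and a bar at the group mean. All Ctrl points lie at 0, ENSG00000226919 falls from a mean of 11.4 CPM with Dec to 5.05 with Dec_Sam, and LINC00440 has 1 high library in each treated group.

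LINC01189 (6, 5 and 6 counts with Dec), LINC02518 (8, 6 and 5) and G2E3-AS1 (8, 6 and 5) were just inside. GS1-600G8.3 (23, 4 and 19), LINC00351 (11, 4 and 7) and ESAM-AS1 (8, 10 and 4) were just outside because of a single library with 4 counts.

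The start sites of several members had related sequences. The 300 bases around the annotated start (250 before, 50 from the start on, GRCh38) were compared between genes. The windows of ENSG00000226919 and ENSG00000284837, the 2 best-read members of the largest group of related windows, aligned at 86.3% identity over 175 alignment columns. No repeat annotation was used here and the windows were not assigned to a repeat. With at least 80% identity over at least 100 aligned bases on the same strand, 5 of the other 155 members (3.23%) had a window that matched that of ENSG00000226919, against 4 of 8239 other lncRNAs at 0 in the controls (0.0485%), 4 of 2279 lncRNAs read in each control (0.176%), 1 of the 346 protein-coding genes that met the same count rule (0.289%) and 2 of all 19889 protein-coding genes (0.0101%). The 5 were ENSG00000284837, LINC01419, ENSG00000265217, ENSG00000286769 (93.6% identity over 250 bases, the longest match) and ENSG00000287144. Linked to these 6 through a further match were OVAAL, LINC02377 and ENSG00000277738, giving a group of 9 members (5.77%). Windows like any of these 9 were found in 30 of 8239 other lncRNAs at 0 in the controls (0.364%) and in 7 of the 2279 read in each control (0.307%). This search was chosen after the sequences had been seen, and it is given as a description without a test.

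Levels and differences between Dec_Sam and Dec varied within this group of 9. The counts of ENSG00000277738 were 13, 18 and 31 with Dec and 33, 31 and 37 with Dec_Sam, and those of ENSG00000265217 were 10, 9 and 13 with Dec and 18, 14 and 14 with Dec_Sam, so that, after scaling, both were higher in each Dec_Sam library than in any Dec library. OVAAL had 16, 8 and 17 with Dec and 5, 12 and 21 with Dec_Sam, and its groups overlap. Across the group the ratio of the Dec_Sam mean to the Dec mean ran from 0.445 in ENSG00000226919 to 1.67 in ENSG00000277738.

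A second group of related windows held CASC9, ENSG00000258053, ENSG00000257869 and LINC02428. CASC9, a lncRNA named for a cancer susceptibility locus, had 37, 27 and 24 counts with Dec and 36, 25 and 31 with Dec_Sam. ENSG00000258053 had 44, 30 and 28 with Dec and 48, 29 and 31 with Dec_Sam, and in both genes the groups overlap. The transcripts of ENSG00000257869 and LINC02428 are near-identical in part to LINC00649, so their counts are uncertain. Windows like any of these 4 were found in 19 of 8239 other lncRNAs at 0 in the controls (0.231%) and in 10 of the 2279 read in each control (0.439%). A further group held ENSG00000285894, ENSG00000261028 and ENSG00000286046. The last group held 3 members, among them ENSG00000224698 and ENSG00000238122, which have the same sequence. It made up 1.92% of members, and windows like these were found in 1.18% of other lncRNAs at 0 in the controls. The share among lncRNAs read in each control was 1.18% too. The groups were put together because they hold at least 3 members, so their share among members is set in part by that choice.

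CpG content, which the rule did not use, placed the members between silent and active lncRNAs. In the 1000 bases centred on the annotated start, the median member had 26 CpG dinucleotides, with quartiles at 12 and 41. The median was 11 in other lncRNAs at 0 in the controls (quartiles 6 and 21), 48 in lncRNAs read in each control, 45 in protein-coding genes that met the same count rule and 66 in all protein-coding genes. Windows of CpG-island type, with a GC content of at least 50% and an observed-to-expected CpG ratio of at least 0.6, were found at 28 members (17.9%), 8.14% of the other lncRNAs at 0 in the controls, 18.9% of all lncRNAs, 50.1% of the lncRNAs read in each control and 43.9% of the protein-coding genes by the same rule. Among the 68 members with 10 or more counts in each Dec library the share was 19.1%, and among the 88 with fewer it was 17%. The annotated start was taken as given, and the start used in these cells was not measured.

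Individual members covered the whole range of CpG content. LINC00440 had no CpG in its 300 bases and 1 in 1000. LINC02282, at chr14:28785644-28785943 on the minus strand, had 18 in the 300 bases. FLJ16779, at chr20:63253728-63254027 on the plus strand, had 39. The windows of LINC02282 and FLJ16779 are shown as CpG-rich cases, both of CpG-island type, with each CpG in capitals (GRCh38).
LINC02282: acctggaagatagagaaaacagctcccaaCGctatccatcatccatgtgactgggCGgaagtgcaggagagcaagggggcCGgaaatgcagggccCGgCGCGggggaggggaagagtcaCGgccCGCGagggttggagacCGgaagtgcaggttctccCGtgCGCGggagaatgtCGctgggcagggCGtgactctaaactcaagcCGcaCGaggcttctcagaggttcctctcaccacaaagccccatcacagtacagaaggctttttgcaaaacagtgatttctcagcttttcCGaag
FLJ16779: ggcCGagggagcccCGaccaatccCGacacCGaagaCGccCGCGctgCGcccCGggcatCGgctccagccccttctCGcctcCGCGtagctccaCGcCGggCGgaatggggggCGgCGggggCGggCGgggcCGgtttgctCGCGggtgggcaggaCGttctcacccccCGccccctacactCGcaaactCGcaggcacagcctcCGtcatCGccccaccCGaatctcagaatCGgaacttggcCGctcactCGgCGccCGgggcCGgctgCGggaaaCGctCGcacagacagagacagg

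Of 4 motifs that contain CpG and were searched on both strands of the 300-base windows, the E-box CACGTG was found at 7.05% of members, 4.54% of other lncRNAs at 0 in the controls and 7.2% of all lncRNAs and protein-coding genes. The E2F-type motif TCCCGC was found at 14.7% of members, 7.91% of other lncRNAs at 0 in the controls and 25.6% of all lncRNAs and protein-coding genes. The cAMP response element TGACGTCA and the palindromic NRF1 motif were found at 0 members, at 0.437% and 0.146% of other lncRNAs at 0 in the controls, and at 1.78% and 1.15% of all these genes.

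**Figure D2:**
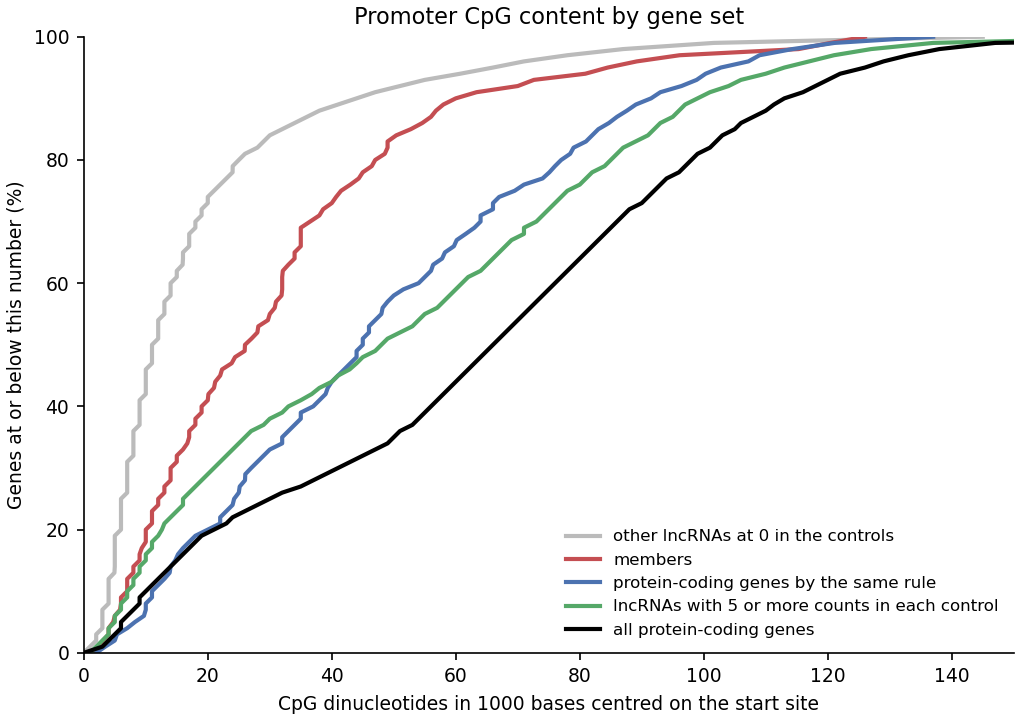
Cumulative share of genes (%, vertical axis) by the number of CpG dinucleotides in the 1000 bases centred on the annotated start (horizontal axis), with 1 line per gene set. The line of the members, with a median of 26, lies between that of other lncRNAs at 0 in the controls (median 11) and those of lncRNAs read in each control (median 48) and of all protein-coding genes (median 66).

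Whether the members were also read when SAM was added was taken from the Dec_Sam libraries, whose counts had no part in choosing them. No member was at 0 in all 3 Dec_Sam libraries, 151 had at least 1 count in each, and 101 of 156 (64.7%) met the same minimum of 5 counts in each. Among the 346 protein-coding genes that met the same rule for Ctrl and Dec, 288 (83.2%) met it in Dec_Sam. Of the 8240 other lncRNAs at 0 in the controls, 25 (0.303%) reached 5 counts in each Dec_Sam library. By the count with Dec, 61 of 68 members (89.7%) with 10 or more counts in each Dec library met the minimum in Dec_Sam, against 40 of 88 (45.5%) with a lowest count of 5 to 9. The protein-coding genes had 217 of 231 (93.9%) and 71 of 115 (61.7%) in the same classes.

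**Figure D3:**
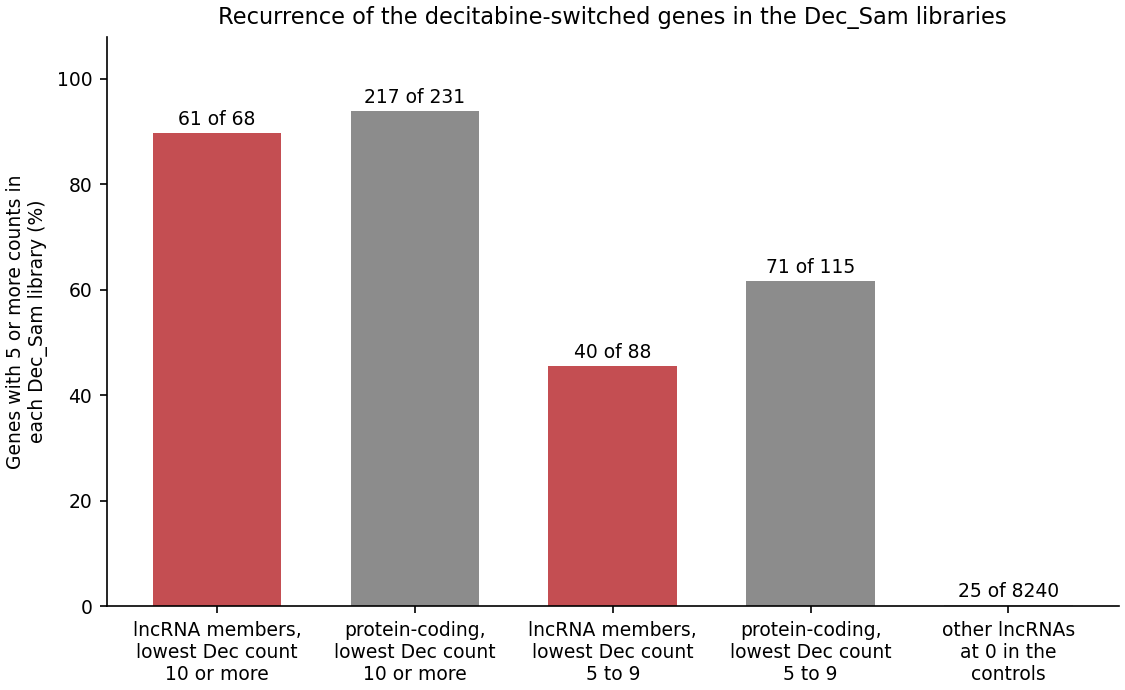
Share of genes (%) with 5 or more counts in each of the 3 Dec_Sam libraries, for lncRNA members and for protein-coding genes of the same rule by their lowest Dec count, and for other lncRNAs at 0 in the controls, with the number of genes above each bar. The share was 89.7% and 93.9% in the upper class of lncRNAs and protein-coding genes, and 45.5% and 61.7% in the lower.

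The summed level of the members was lower with Dec_Sam than with Dec in every library. It was 129, 133 and 143 CPM with Dec and 95.7, 92.4 and 115 CPM with Dec_Sam, and without ENSG00000226919 it was 118, 121 and 132 against 91.1, 87.6 and 110. The protein-coding genes of the same rule summed to 1100, 1130 and 1060 CPM with Dec and 1030, 1010 and 990 with Dec_Sam. The mean was lower with Dec_Sam in 114 members and higher in 42, and the median ratio of the means was 0.755 (quartiles 0.557 and 1.02), against 0.871 in the protein-coding genes of the same rule. All libraries of Dec_Sam lay below all of Dec in 42 members (26.9%) and above in 3 (1.92%), where 16.8% and 17.2% of all 18532 genes tested did so. Among the 88 members that could be tested these shares were 22.7% and 3.41%, and among all 2987 lncRNAs tested 21.6% and 7.57%.

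The Dec libraries of this comparison had also chosen the members, so it is not independent of the rule. When the same minimum was set on the Dec_Sam libraries in their place, 126 lncRNAs were found, of which 101 were members (64.7% of the members, 80.2% of the 126). Among those 126, the mean was lower with Dec_Sam in 65 and higher in 61, and the median ratio was 0.979. All lncRNAs that could be tested, whatever their control level, had a median log2 fold change of -0.17 between Dec_Sam and Dec, and 248 of 2987 (8.3%) were called lower and 53 (1.77%) higher. The median of all genes tested was 0.00.

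Enough counts for a test between Dec_Sam and Dec were present in 88 of the 156 members. With 0 counts in the controls, a member could pass this filter on its Dec libraries alone, the ones that had chosen it, so counts and medians over the 88 are a description of them. edgeR's quasi-likelihood test called 10 of these lower with Dec_Sam and 0 higher (adjusted p under 0.05), where 8.02% and 7.67% of all genes were called lower and higher. DESeq2 called 4 lower, where it called 8.61% of all genes lower. An unadjusted p under 0.05 was seen in 21 members with edgeR. The median log2 fold change over the 88 was -0.21, with 58 below 0 and 30 above. It was -0.29 in the 67 tested members with 10 or more counts in each Dec library and 0.04 in the 21 with fewer. The filter asks for about 10 counts in 3 libraries, so these 21 could pass it only with a well-read Dec_Sam library. Their median is therefore shaped by the filter. Over all 88 members with a lowest Dec count of 5 to 9, tested or not, the mean was lower with Dec_Sam in 65 and higher in 23. Their median ratio was 0.723, against 0.809 in the 68 members with more. Among the 280 protein-coding genes of the same rule that were tested, 7 were called lower (2.5%) and 9 higher (3.21%), with a median of -0.13. The 10 called members were 11.4% of those tested. They all had 10 or more counts in each Dec library. Windows of CpG-island type were found at 0 of the 10.

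ENSG00000226919 was called in each of the 17 other fits, those without 1 library included. Its counts of 255, 291 and 261 with Dec and 106, 110 and 134 with Dec_Sam corresponded to -1.17 on the log2 scale (SE 0.15, edgeR adjusted p = 0.00072). ENSG00000257474, a lncRNA of 3 exons near the apoptosis gene PAWR on chromosome 12, had 57, 86 and 77 counts with Dec and 22, 19 and 40 with Dec_Sam. Its log2 fold change was -1.40 (SE 0.29, edgeR adjusted p = 0.009). LINC02522, a short lncRNA of 2 exons on chromosome 6, had 17, 28 and 34 with Dec and 7, 8 and 8 with Dec_Sam, which is -1.73 on the log2 scale (SE 0.38, edgeR adjusted p = 0.011). With 256 exon bases it had the highest level per length of all members, 4.35 CPM per kilobase with Dec.

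ENSG00000233191 on chromosome 7 had 104, 88 and 78 counts with Dec and 54, 47 and 48 with Dec_Sam, with no overlap and a log2 fold change of -0.82 (edgeR adjusted p = 0.019). LINC01819 on chromosome 2 had 78, 87 and 80 with Dec and 40, 46 and 57 with Dec_Sam (log2 fold change -0.74, edgeR adjusted p = 0.033). In each of these 2 the lowest Dec library stood above the highest Dec_Sam library. XXYLT1-AS2, antisense to a xylosyltransferase gene on chromosome 3, had 24, 29 and 29 with Dec and 16, 12 and 7 with Dec_Sam (log2 fold change -1.18, edgeR adjusted p = 0.039). ENSG00000286868 on chromosome 2 had 20, 24 and 27 with Dec and 12, 10 and 12 with Dec_Sam (log2 fold change -1.02, edgeR adjusted p = 0.048), and it was called in none of the fits that left out 1 library. To complete the 10, outside the rule for named genes and with values seen, ENSG00000266830 (log2 fold change -1.88), MYRF-AS1 (-1.60) and ST8SIA6-AS1 (-0.82) were also called lower. Without Dec replicate 2, or without Dec_Sam replicate 2, ENSG00000226919 alone was called.

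Other well-read members had no call. The log2 fold change of LINC01602 was -0.19 with a 95% interval from -0.58 to 0.20. For LINC00440 the value was -0.03 with an interval from -2.48 to 2.42, and it turned to 1.15 without Dec replicate 3. For CASC9 it was 0.10 with an interval from -0.51 to 0.71. The 3 members with all Dec_Sam libraries above all Dec libraries were ENSG00000277738 (log2 fold change 0.74, edgeR adjusted p = 0.15), ENSG00000265217 (0.56, adjusted p = 0.31) and ENSG00000258216 (0.63, adjusted p = 0.29). None of these 3 passed the test.

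**Figure D4:**
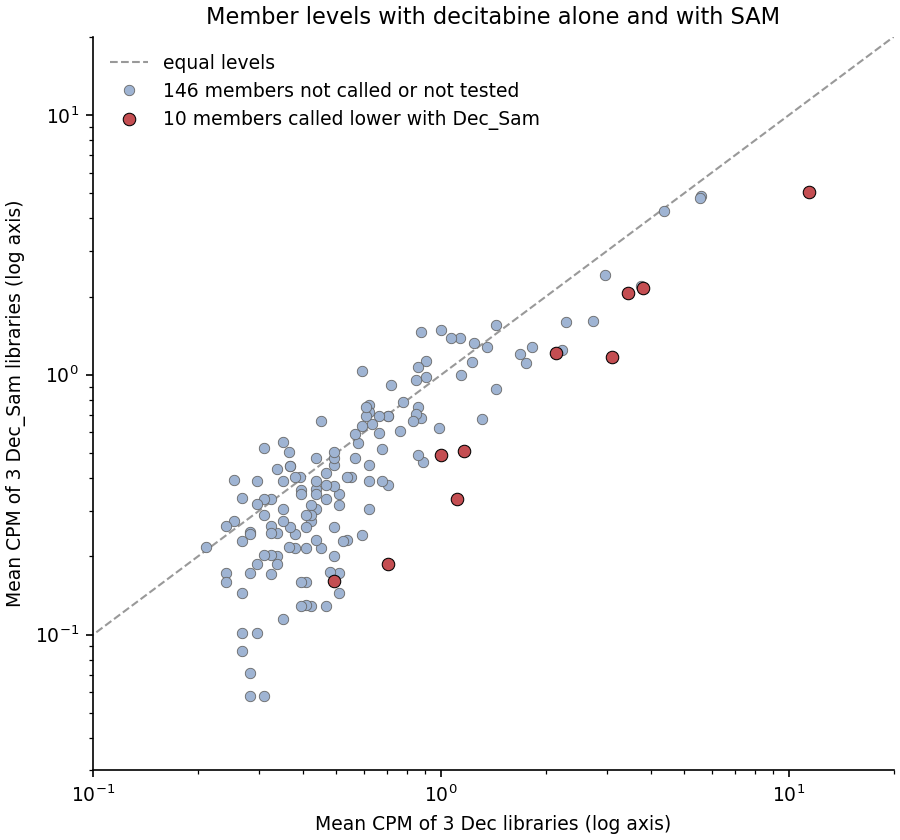
Mean CPM of the 3 Dec libraries (horizontal, log axis) against that of the 3 Dec_Sam libraries (vertical, log axis) for the 156 members, with the line of equal levels. The 10 members called lower with Dec_Sam lie under the line, and the mean of 114 members was lower with Dec_Sam.

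Members whose gene spans a microRNA on the same strand are shown with the mature sequences, as RefSeq gives them (GRCh38.p14), because these are the products a host transcript can release. Capitals mark the seed, bases 2 to 8. The libraries were counted per gene and the microRNAs themselves were not measured. MIR155HG lies on chromosome 21, MIR9-3HG on chromosome 15, and MIR3142HG and MIR4458HG on chromosome 5.
hsa-miR-155-5p: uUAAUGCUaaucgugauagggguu
hsa-miR-155-3p: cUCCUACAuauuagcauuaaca
hsa-miR-146a-5p: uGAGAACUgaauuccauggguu
hsa-miR-146a-3p: cCUCUGAAauucaguucuucag
hsa-miR-3142: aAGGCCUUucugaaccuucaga
hsa-miR-9-5p: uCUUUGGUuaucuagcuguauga
hsa-miR-9-3p: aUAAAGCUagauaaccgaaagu
hsa-miR-4458: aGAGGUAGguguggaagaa

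The seeds of these 8 mature microRNAs all differ, and that of miR-4458 is the seed of the let-7 family. MIR155HG, the host of the immune-cell microRNA miR-155, had 14, 8 and 8 counts with Dec and 6, 5 and 8 with Dec_Sam. MIR3142HG, which spans miR-3142 and miR-146a, a feedback regulator of NF-kB signalling, had 6, 7 and 12 with Dec and 2, 2 and 4 with Dec_Sam, and its groups did not overlap. MIR9-3HG, named as the host of a copy of the neural microRNA miR-9, had 10, 11 and 10 with Dec and 9, 11 and 7 with Dec_Sam. The window at its annotated start (chr15:89377871-89378170, plus strand) lies downstream of miR-9-5p (chr15:89368032-89368054). A transcript from that start would not hold miR-9, and the start used in these cells was not measured. MIR4458HG had 22, 19 and 20 with Dec and 20, 27 and 27 with Dec_Sam. These are low counts, and MIR155HG and MIR3142HG were under the minimum for a test.

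From a list of 30 well-known lncRNAs of development, germ line, pluripotency and prostate cancer, 29 were in the files and 10 were at 0 in the controls. CASC9, DSCR4, MIR9-3HG and MIR155HG were members. DSCR4, a gene of the Down syndrome region expressed in placenta, had 9, 8 and 11 counts with Dec and 5, 6 and 14 with Dec_Sam. The other 6 silent genes of the list had at most 2 counts in any Dec library, among them the fetal lncRNA FENDRR (0, 2 and 0). DSCR8 (20, 28 and 21 with Dec) and LINC01194 (31, 45 and 37) missed membership by a single count in 1 control. Of the 18 genes of the list that were tested, 10 were higher and 1, SOX21-AS1, was lower with Dec than with Ctrl (edgeR), where 36.3% and 32.5% of all genes were. Among the 10 are the members CASC9 and MIR9-3HG, whose direction the rule fixed. Between Dec_Sam and Dec, 0 were higher and 1, HOTTIP, was lower.

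Members were spread over the genome, and no 2 of them lay within 50 kb of each other. Chromosome 2 held 17, chromosome 1 held 12 and chromosomes 3 and 21 held 10 each. On chromosome 21 these were 6.41% of the 156 lncRNAs at 0 in the controls, against 1.86% over all chromosomes, and on the X chromosome 6 of 130 (4.62%). LINC00334, the best-read member on chromosome 21, had 53, 61 and 48 counts with Dec and 36, 31 and 44 with Dec_Sam. It was chosen for mention after its values were seen, as was the chromosome.

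Each member was then paired with its nearest protein-coding gene. The neighbour overlapped on the other strand, with its start more than 2000 bases away, for 52 members, and on the same strand for 6. In 7 pairs the start sites lay on opposite strands within 2000 bases of each other, of which 2 (SAT1 and MAGEA4) faced away from the start of the lncRNA and 5 overlapped it head to head. Another 13 neighbours lay within 10 kb, 37 at 10 to 100 kb, and 41 farther away. Compared with other lncRNAs at 0 in the controls, the shares were 33.3% against 32.1% for antisense overlap, 3.85% against 7.66% for overlap on the same strand and 4.49% against 7.04% for close opposite starts.

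The members had 153 distinct neighbours, of which 129 could be tested. With Dec against Ctrl, 55 (42.6%) were higher and 42 (32.6%) lower (edgeR, adjusted p under 0.05), where 34.2% and 37.3% of all protein-coding genes were. The median log2 fold change was 0.17, against 0.01 for 3388 tested neighbours of other lncRNAs at 0 in the controls, of which 36.2% were higher and 35.9% lower. When libraries were scaled by their totals alone, the split became 71 higher and 34 lower, and the median of all genes moved from 0.04 to 0.28. Of the neighbours, 8 (5.23%) were themselves at 0 in each control with at least 5 counts in each Dec library, against 1.72% of the neighbours of other lncRNAs at 0 in the controls and 1.74% of all protein-coding genes. Among the 8, 3 overlapped their member on the other strand, 1 on the same strand, and NKAIN4 head to head. Reads in any shared exon bases cannot be told apart, and their part in the 5.23% was not tested. With Dec_Sam against Dec, 15 neighbours (11.6%) were higher and 12 (9.3%) lower, where 9.23% and 8.07% of protein-coding genes were.

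In the 8 pairs with the closest start sites, the neighbours were, with 1 exception, higher with Dec. MAGEA4, a cancer-testis antigen gene whose start lies 1434 bases from that of MAGEA4-AS1, had 0, 3 and 1 counts with Ctrl and 2495, 2751 and 1947 with Dec. MAGEA4-AS1 itself had 42, 33 and 44 with Dec and 28, 21 and 34 with Dec_Sam. CAVIN2, which encodes a coat protein of caveolae, had 72, 93 and 91 with Ctrl, 2020, 2070 and 1459 with Dec, and 1192, 1174 and 1185 with Dec_Sam, and was called lower with Dec_Sam (log2 fold change -0.61, edgeR adjusted p = 0.0051). CAVIN2-AS1, which overlaps it head to head, had 19, 20 and 11 with Dec and 9, 9 and 8 with Dec_Sam, which do not overlap but gave an adjusted p of 0.13 with edgeR. ARHGEF17, which encodes a guanine nucleotide exchange factor, also fell with Dec_Sam (log2 fold change -0.49, edgeR adjusted p = 0.0088), from 654, 767 and 717 counts to 418, 500 and 565. ARHGEF17-AS1 went from 10, 23 and 11 to 3, 8 and 10, which overlap, and 57.76% of its exon bases lie in ARHGEF17 exons of the other strand.

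The other pairs were those of SAT1, the polyamine acetyltransferase gene next to ENSG00000233785 (log2 fold change 2.04 with Dec, edgeR adjusted p = 1.8e-10), MAGEA10 next to ENSG00000266560 (3.36, edgeR adjusted p = 4.9e-10), and ENSG00000285471 next to ENSG00000284837 (4.30, edgeR adjusted p = 2e-05). The exception was the cap-binding protein gene EIF4E next to ENSG00000263923, at -0.26 (edgeR adjusted p = 0.0062). ENSG00000266560 shares 89.16% of its exon bases with genes of its own strand, MAGEA10 among them, and is identical over its length to ENSG00000290892, so its counts are uncertain. Over the 7 neighbours with close opposite starts the median log2 fold change with Dec was 2.04, with 5 higher and 2 lower, EIF4E and ATPSCKMT. ATPSCKMT, whose start lies 1563 bases from that of ENSG00000248968, was lower with Dec (-0.60, edgeR adjusted p = 0.00023). It was called higher with Dec_Sam than with Dec (0.94, edgeR adjusted p = 0.00032). For the 355 tested neighbours with close opposite starts of other lncRNAs at 0 in the controls the median with Dec was 0.15, with 43.9% higher.

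Neighbours that met the count rule themselves were of varied function. SLC1A7, a glutamate transporter gene of the retina, had 0 counts in each control, 236, 244 and 193 with Dec and 212, 202 and 156 with Dec_Sam, and is overlapped by ENSG00000235563 (30, 39 and 33 with Dec, 17, 21 and 23 with Dec_Sam). Both SLC1A7 (edgeR adjusted p = 0.43) and ENSG00000235563 (edgeR adjusted p = 0.10) had a lower mean with Dec_Sam without a call. EDNRB, the endothelin receptor B gene, had 0 counts in each control, 30, 34 and 32 with Dec and 66, 70 and 43 with Dec_Sam, and was called higher with Dec_Sam (log2 fold change 0.94, edgeR adjusted p = 0.029). ENSG00000233379, which overlaps it on the same strand, had 8, 11 and 12 with Dec and 8, 7 and 6 with Dec_Sam. NKAIN4 had 20, 19 and 20 with Dec and 17, 12 and 23 with Dec_Sam, and FLJ16779, whose start lies 485 bases from its start, had 6, 17 and 15 with Dec and 4, 11 and 13 with Dec_Sam. PRR20G had 83, 125 and 240 with Dec and 17, 28 and 110 with Dec_Sam, without a call (edgeR adjusted p = 0.29). Its counts rose with the replicate number in both groups, and this fit did not take the numbers as pairs. ENSG00000286919, beside PRR20G, had 19, 12 and 24 against 12, 24 and 18. CHRNB3, SLITRK1 and GAL3ST3, genes of a nicotinic receptor subunit, a synaptic adhesion protein and a sulfotransferase, had 7 to 22 counts in each Dec library.

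Among the neighbours of the called members, RGS7, which holds ENSG00000226919 on its other strand, had 6, 9 and 3 counts with Ctrl, 50, 56 and 52 with Dec and 21, 33 and 18 with Dec_Sam, and was called higher with Dec (log2 fold change 2.88, edgeR adjusted p = 5.9e-06) and lower with Dec_Sam (-1.09, edgeR adjusted p = 0.021). PTPRN2, a phosphatase-like gene of secretory granules 20398 bases from ENSG00000233191, had 173, 163 and 168 with Ctrl, 699, 616 and 351 with Dec and 285, 236 and 247 with Dec_Sam (log2 fold change -1.08 with Dec_Sam, edgeR adjusted p = 0.0081). In both pairs the neighbour had its highest mean with Dec. For the lncRNA this was fixed by the rule and by its choice as a member called lower with Dec_Sam. Reads of RGS7 and ENSG00000226919 in the shared exon bases cannot be told apart. GCNT2, the neighbour of LINC02522, was called lower with Dec_Sam (-0.49, edgeR adjusted p = 0.0094) but not higher with Dec (-0.24, edgeR adjusted p = 0.053), and PAWR, the neighbour of ENSG00000257474, rose with Dec (1.03, edgeR adjusted p = 2.7e-07) and was not called with Dec_Sam (0.10, edgeR adjusted p = 0.50). TMEFF2, the nearest protein-coding gene of ENSG00000286868 though 1672789 bases away, was called in the other direction, higher with Dec_Sam (0.80, edgeR adjusted p = 0.048), with 21, 31 and 24 counts with Dec and 41, 40 and 48 with Dec_Sam. XXYLT1, MYRF and NLK, the neighbours of XXYLT1-AS2, MYRF-AS1 and ENSG00000266830, were not called between Dec_Sam and Dec, and those of LINC01819 and ST8SIA6-AS1 could not be tested.

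**Figure D5:**
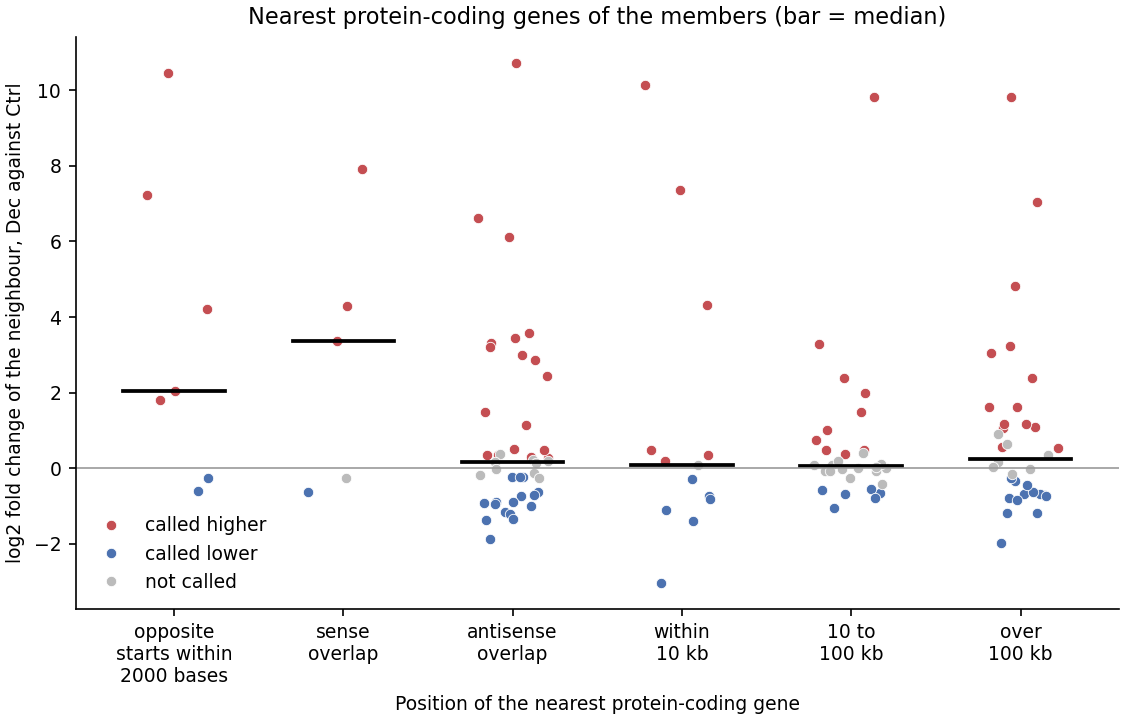
Log2 fold change with Dec against Ctrl (vertical axis) of the nearest protein-coding gene of each member, by its position relative to the member, with 1 point per gene, colour for the call and a bar at the median. The 7 neighbours with opposite starts within 2000 bases have a median of 2.04, and the 43 tested antisense neighbours one of 0.18.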

How the data were processed

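RNA-seq of PC-3 cells was available as 9 libraries, 3 each of Ctrl, Dec and Dec_Sam, grouped by the sample labels; doses were taken from the study's methods. Per these methods and the submitters' processing notes, reads were trimmed with Trim Galore 0.6.4 and quantified with kallisto against GRCh38 (GRCh38.p13 in the notes). Estimated counts for each Ensembl gene, with no scaling, were deposited by the authors and were the values used. The deposited log2 CPM values were not used. The annotation release and the strandedness are not given in the sources used here. Nothing in the sources says that replicates are separate cultures, so p-values measure only the spread between these libraries.

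Estimated counts were rounded (ties to the even number). Gene types, positions and start sites came from GENCODE 44, which held 60357 of the 60617 identifiers. The 18532 genes that passed filterByExpr were fitted with edgeR 4.0.16 in R 4.3.3 (TMM, robust quasi-likelihood, 1 mean per group, all 9 libraries) with Benjamini-Hochberg adjustment over all genes, and the script was tested on simulated data. Standard errors were derived from the fold change and its F statistic. The folds given as at least a value allow for counting error in the controls only. The Dec counts entered as observed, with no allowance for their counting error or for the choice of members. Alternatives were other scalings, filters and tools (limma 3.58.1, DESeq2 1.42.0), a replicate block, other definitions of members and neighbours, and leaving out each library. Copies and related start-site windows were found with BLAST 2.17.0. Sequences came from GRCh38 and, for microRNAs, from RefSeq.

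Members, gene lists and tests were chosen with earlier results of these data known. Named genes were the 10 members with the most Dec counts, called members averaging 20 or more counts in any group (at most 5 per direction), members at the threshold, the 8 pairs with the closest start sites, pairs with a neighbour that met the same rule, microRNA hosts, and members of the list of 30 lncRNAs. The search for related windows and its groups were chosen after the data had been seen. Libraries of 1 group differed by 5.86 to 23.5 times the sampling noise (chi-square per degree of freedom), so none was a copy. Some of the genes and sequences that this rule names are not reported here.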

Additional observations from a re-analysis of the deposited data

How the results depend on the processing

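The number of members lower with Dec_Sam than with Dec was 10, and 4 with DESeq2, 7 with an absolute log2 fold change of at least 1, 8 of 82 among lncRNAs chosen by the Dec_Sam counts (chosen after seeing the data), and from 1 to 10 with 1 library left out; the number higher was 0, and from 0 to 1 with 1 library left out. Without Dec replicates 1, 2 and 3 there were 5, 1 and 6 lower, and without Dec_Sam replicates 1 and 2 there were 4 and 1. In the same fits, 4.94%, 3.14% and 8.05% of all genes were lower without Dec replicates 1, 2 and 3. Without Dec_Sam replicates 1 and 2 the shares were 4.07% and 2.53%. With 1 library left out, neighbours higher with Dec_Sam ranged from 6 to 17, against 15, and neighbours lower with Dec_Sam from 6 to 14, against 12; those higher and lower with Dec ranged from 51 to 58 and from 39 to 43. With an absolute log2 fold change of at least 1, neighbours lower with Dec were 12, lower with Dec_Sam 2 and higher with Dec_Sam 0. Only neighbours within 10 kb gave 32 higher and 25 lower with Dec, and 8 higher and 6 lower with Dec_Sam. Without overlapping neighbours there were 30 higher and 23 lower with Dec, and 7 lower with Dec_Sam. These last settings hold fewer genes by construction; the cause of the other changes was not tested.

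A minimum of 3 counts in each Dec library gave 247 members and one of 10 gave 68, of which 61 met 5 counts in each Dec_Sam library. With 1 library left out, members numbered 172 to 214, of which 105 to 143 met it in Dec_Sam. Ties rounded up, chosen after seeing the data, gave 154 members.

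The log2 fold changes of 27 named members were recomputed, giving 452 values: 398 kept direction and call, 32 lost the call, 7 gained it and 15 changed sign. The changes of sign were ENSG00000286919 (-0.015 with library size alone, -0.218 without Dec replicate 2, -0.26 without Dec_Sam replicate 2), LINC00440 (0.115 with the replicate block, 0.212 with voom and limma, 1.15 without Dec replicate 3, 0.254 and 0.223 without Dec_Sam replicates 1 and 2), ENSG00000286284 (-0.191 and -0.048 without Dec replicates 2 and 3, -0.007 without Dec_Sam replicate 1), CASC9 (-0.024 without Dec replicate 3, -0.037 without Dec_Sam replicate 1), ENSG00000286459 (-0.018 without Dec_Sam replicate 2) and MIR9-3HG (0.004 without Dec_Sam replicate 3). With 1 library left out, the ranges were -0.26 to 0.252 for ENSG00000286919, -0.789 to 1.15 for LINC00440, -0.191 to 0.555 for ENSG00000286284, -0.037 to 0.302 for CASC9, -0.018 to 0.204 for ENSG00000286459 and -0.334 to 0.004 for MIR9-3HG.

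Same-numbered libraries correlated in their deviations by -0.033 to 0.294, with 3 of 9 pairs over 0.1, and different-numbered ones by -0.286 to 0.069. Between Dec and Dec_Sam, same-numbered pairs gave 0.294, 0.043 and 0.292, and different-numbered pairs -0.286 to 0.042. The main fits did not take the numbers as pairs, and whether same-numbered libraries belong together was not tested. With the replicate number as a block, 10 members were lower and 0 higher with Dec_Sam, 56 neighbours higher and 43 lower with Dec. Of all genes, 10.2% were lower with Dec_Sam in that fit. Each library correlated best with its own number in 6 of 9 cases.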
